A study of Mus musculus with 22 samples.

Results

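Mouse mammary epithelial cells were grown either as conditionally reprogrammed cells (CRC) or in EpiC, a medium for mammary epithelium, and the poly(A) RNA of both kinds of culture was sequenced. The comparison made here holds 6 of the 22 libraries of the series: 3 CRC cultures and 3 EpiC cultures, chosen by their labels and not by any measured value. Each kind of culture has 1 library of each of 3 genotypes. The CYP19A1 cultures came from mice with a tetracycline-responsive CYP19A1 (aromatase) transgene driven by MMTV-rtTA, the Brca1mp cultures from mice with 1 conditional Brca1 allele (Brca1fl11/WT), and the Brca1mm cultures from mice in which both Brca1 alleles were conditional (Brca1fl11/fl11). All 3 genotypes shared MMTV-Cre, which is active mainly in mammary epithelium, 1 mutant Trp53 allele (Trp53-/+) and the C57Bl/6 background, and all donors were nulliparous females. The labels give no culture recipe. Libraries of different genotypes are of different mice, but the labels do not say whether the CRC and EpiC libraries of a genotype share an animal. The p-values measure only how far these samples spread, with 1 library of each genotype in each kind of culture, and how much of that spread is technical is unknown. Values are FPKM, fragments scaled by transcript length and by the number of mapped fragments, and values of 3 libraries are always given in the order CYP19A1, Brca1mp, Brca1mm.

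Conditional reprogramming usually means growth on irradiated fibroblast feeder cells with an inhibitor of ROCK, a kinase that acts on myosin and the actin cortex. It is known for keeping epithelial cells of many organs dividing in a state like that of adult progenitor cells. The mammary epithelium has an inner luminal layer, which makes keratins 8 and 18 and milk, and an outer basal layer of contractile cells, which makes keratins 5 and 14. The skin and other stratified epithelia share the basal keratins, hold their cells together with desmosomes, and build a cornified envelope as their cells differentiate. Fibroblasts secrete fibrillar collagens and most other interstitial matrix.

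The 6 libraries were alike in size. Their FPKM summed to 534249 to 618933, and 11164 to 11431 genes reached 1 FPKM. Over the 11837 genes that averaged 1 FPKM or more, log2(FPKM + 1) correlated across genes at 0.937 to 0.978 between CRC cultures and at 0.689 to 0.815 between CRC and EpiC cultures. Within EpiC the CYP19A1 and Brca1mp libraries correlated at 0.960, but the Brca1mm library correlated with them at 0.879 and 0.895. Krt8, Krt18, Epcam and Cdh1, which mark epithelium, were near 0 in that library alone, so the labelled epithelial identity does not hold there: Cdh1, the E-cadherin gene, had 169, 169 and 199 FPKM in CRC cultures, against 165, 100.1 and 0.106 FPKM in EpiC cultures. For this reason the count of each gene list described below is given for all 3 genotypes and again for CYP19A1 and Brca1mp alone. Fibroblast markers were present in all 6 libraries, and the labels do not say whether CRC were separated from any feeder cells before RNA was taken, so the CRC values may include RNA of such cells. The 20 genes of that marker list summed to 442 to 702 FPKM in CRC cultures, against 4949 to 9698 FPKM in EpiC cultures; 10 of them were above 1 FPKM in all CRC cultures, 14 in all EpiC cultures, and 3 were under 1 FPKM in all 6. Macrophage markers summed to 46.5 to 70.7 FPKM in CRC and 44.0 to 93.2 FPKM in EpiC cultures, and 13 of the 14 lymphocyte markers were under 1 FPKM in all 6 libraries. Of the tested markers of other cell types, 2 of 3 pericyte genes rose (Mcam and Notch3; the list summed to 43.7 to 113 FPKM in CRC and 12.3 to 16.8 FPKM in EpiC cultures), 1 of 10 adipocyte genes rose and 1 fell, 1 gene fell of 4 for macrophages (Cd74), 3 for endothelium (Eng) and 10 for skeletal muscle (Eno3), and 0 of 2 Schwann cell genes were called. In RNA from a whole culture, fewer cells of a type and less RNA per cell cannot be told apart.

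Between CRC and EpiC cultures, 2741 of 11837 tested genes differed (23.2%), of which 1352 rose (11.4%) and 1389 fell (11.7%) in CRC. A call means an adjusted p (Benjamini-Hochberg) under 0.05 in limma, with genotype in the model. In CYP19A1 and Brca1mp alone, 2093 of 11713 genes were called (17.9%), 983 of them higher (8.39%) and 1110 lower (9.48%) in CRC. The calls overlapped: 1783 genes were called in both fits, which is 65.0% of the calls over 3 genotypes and 85.2% of the calls over 2. Every library of the fit over 2 is also in the fit over 3, so an overlap is partly built in. All 2741 genes called over 3 genotypes had the same direction in each genotype, so the shared direction of the 1783 was fixed in advance. The 3 CRC values lay entirely above or entirely below the 3 EpiC values in 50.4% of all tested genes. The number of genes with a difference of at least 1 on the log2(FPKM + 1) scale was 3055 in CYP19A1, 2829 in Brca1mp and 3789 in Brca1mm. Leaving out a library left 1 residual degree of freedom, and the count was then 159 without the CRC Brca1mp library and 168 without the EpiC Brca1mp library, 565 and 671 without the CRC and the EpiC CYP19A1 library, and 2091 and 2016 without the CRC and the EpiC Brca1mm library. For the longer gene lists below, the count is also given without 1 library of a genotype, as the range over leaving out its CRC or its EpiC library. With genotype in the model, the other library of that genotype then carries no information on the difference between media. The log2 difference is therefore the same whichever of the 2 is left out, and only the genes kept and the fitted variances vary. Such checks, also of single genes, are thus 1 per genotype. The fit without a Brca1mm library is nearly that of CYP19A1 and Brca1mp alone. A log2 difference below is always CRC minus EpiC, taken between values of log2(FPKM + 1), so it comes out too small where FPKM are low.

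**Figure D1:**
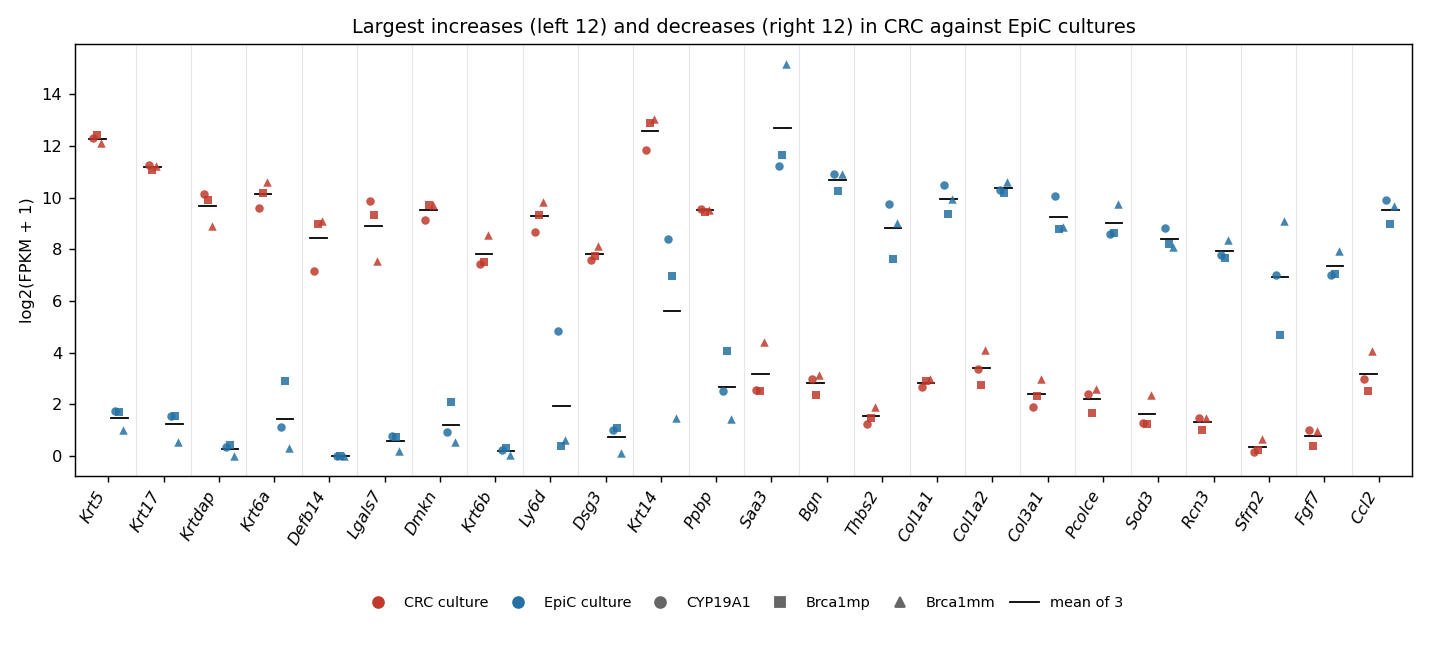
Level of each gene, as log2(FPKM + 1) on the vertical axis, in the 3 CRC cultures (red, left of each pair) and the 3 EpiC cultures (blue, right of each pair); marker shapes are genotypes and black lines the mean of 3 libraries. The 12 genes with the largest called increase in CRC stand on the left and the 12 with the largest called decrease on the right; the groups do not overlap for any of the 24, and Krt14, Ly6d and Sfrp2 in EpiC show the widest spread between genotypes.

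The keratins of stratified and stressed epithelium gave the largest increases in CRC. Krt5, the type II keratin of basal cells, had 5049.6, 5457 and 4450.1 FPKM in CRC cultures, against 2.32, 2.22 and 1.002 FPKM in EpiC cultures (log2 difference 10.80, SE 0.18, adjusted p = 0.00109). Krt17, a keratin of basal, appendage and wounded epithelium, had 2478, 2148 and 2404 FPKM in CRC, against 1.93, 1.94 and 0.460 FPKM in EpiC (log2 difference 9.97, SE 0.28, adjusted p = 0.00171). All 3 CRC values of both genes lay far above all 3 EpiC values. Krt16, which is induced in wounded skin, had 371, 469.6 and 192 FPKM in CRC, against 4.94, 12.8 and 0 FPKM in EpiC (log2 difference 6.22, SE 0.51, adjusted p = 0.00733), and its highest EpiC value lay in Brca1mp. Krt14, the type I partner of Krt5, had 3653, 7582 and 8418 FPKM in CRC, against 333, 124 and 1.73 FPKM in EpiC (log2 difference 6.99, SE 1.62, adjusted p = 0.0452). Its groups did not overlap, but the EpiC values fell apart by genotype, and in CYP19A1 and Brca1mp alone the log2 difference was 4.69, adjusted p = 0.0133. Of 11 tested keratins of this list, 7 rose and 0 fell, with a median log2 difference of 6.22, beside 0.043 over all genes tested; in CYP19A1 and Brca1mp alone 7 rose and 0 fell, with a median of 4.69. The 7 that rose became 6 without a CYP19A1 library, 5 without a Brca1mp library and 7 without a Brca1mm library. Of 5 tested simple keratins of luminal cells 1 (Krt23) rose in either fit, and the median was 2.29 over 3 genotypes but 0.21 over CYP19A1 and Brca1mp. Krt8 had 220.1, 725 and 664 FPKM in CRC, against 205, 460.2 and 0.275 FPKM in EpiC, and Krt19, a keratin of luminal and progenitor cells, had 58.96, 192 and 49.9 FPKM in CRC, against 248, 299 and 11.6 FPKM in EpiC. For both, the CRC and EpiC ranges overlapped. Krt5, Krt17 and Krt16 were called whichever library was left out, and Krt14 lost the call without 1 or more libraries, with a largest adjusted p of 0.155 (without the CRC Brca1mp library).

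The adhesion apparatus of stratified epithelium rose with these keratins. Dsc3, a desmosomal cadherin of basal layers, had 108, 64.7 and 58.4 FPKM in CRC cultures, against 0.0151, 0.0481 and 0.0110 FPKM in EpiC cultures (log2 difference 6.20, SE 0.24, adjusted p = 0.00203). Dsp, desmoplakin, which ties desmosomes to keratin filaments, had 219.7, 189.6 and 184 FPKM in CRC, against 11.2, 7.98 and 0.0240 FPKM in EpiC (log2 difference 5.36, SE 0.73, adjusted p = 0.017). The groups were far apart for both, and for Dsp the Brca1mm EpiC library was the lowest. Of 14 tested desmosome genes 10 rose and 0 fell (median log2 difference 3.09); in CYP19A1 and Brca1mp alone 11 rose and 0 fell (2.38). The 10 that rose became 3 without a CYP19A1 library, 2 without a Brca1mp library and 11 without a Brca1mm library. Hemidesmosomes anchor basal cells to laminin-332 in the basement membrane. Their transmembrane collagen gene Col17a1 had 233, 138 and 129 FPKM in CRC, against 0.584, 0.515 and 0.620 FPKM in EpiC (log2 difference 6.69, SE 0.23, adjusted p = 0.00171), and the EpiC values were alike in all 3 genotypes. Dst, the gene of the hemidesmosomal linker BP230 and other dystonin isoforms, had 96.9, 46.98 and 61.8 FPKM in CRC, against 8.45, 6.40 and 6.57 FPKM in EpiC (log2 difference 3.04, SE 0.20, adjusted p = 0.00491). Of 12 tested genes of this list 5 rose and 0 fell (median 3.36), and 8 rose in CYP19A1 and Brca1mp alone (2.08), where the laminin-332 chain Lamb3 (1.99, adjusted p = 0.00819) and the integrin Itgb4 (2.18, adjusted p = 0.0173) were called as well. The 5 that rose became 2 without a CYP19A1 library, 2 without a Brca1mp library and 8 without a Brca1mm library. Of the adherens and tight junction genes 3 of 20 rose (median 1.59), and in CYP19A1 and Brca1mp alone 6 rose (0.69). Without any CYP19A1 or Brca1mp library 0 of these were called. Ctnnd1, p120-catenin, which stabilises cadherins at the membrane, had 304, 211 and 209 FPKM in CRC, against 78.8, 85.3 and 49.7 FPKM in EpiC (log2 difference 1.76, SE 0.21, adjusted p = 0.0137). Cldn4, a claudin of tight junctions, had 146, 155 and 127 FPKM in CRC and 121, 140.0 and 0.0685 FPKM in EpiC, and outside Brca1mm its values were alike in both media. Dsc3, Col17a1 and Dst were called whichever library was left out, and Dsp and Ctnnd1 lost the call without 1 or more libraries, with largest adjusted p-values of 0.0687 to 0.0844 (without the CRC Brca1mp and CRC CYP19A1 libraries, each in turn).

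Genes of the cornified envelope and of late keratinocyte differentiation rose in 17 of 22 cases and fell in 0, with a median log2 difference of 3.44, and 17 of 23 rose in CYP19A1 and Brca1mp alone (3.46). The 17 that rose became 13 without a CYP19A1 library, 5 to 6 without a Brca1mp library and 17 without a Brca1mm library. Krtdap, a secreted keratinocyte differentiation protein, had 1140.4, 962 and 477 FPKM in CRC cultures, against 0.266, 0.331 and 0 FPKM in EpiC cultures (log2 difference 9.41, SE 0.23, adjusted p = 0.00171). Dmkn, dermokine, had 565, 834 and 835 FPKM in CRC, against 0.890, 3.29 and 0.452 FPKM in EpiC (log2 difference 8.33, SE 0.34, adjusted p = 0.0022). Sbsn, suprabasin, was also present in EpiC, with 276, 329 and 355 FPKM in CRC, against 30.7, 30.4 and 52.1 FPKM in EpiC (log2 difference 3.09, SE 0.19, adjusted p = 0.00434). None of the 3 genes overlapped between media, and Sbsn, with the highest EpiC level, had the smallest difference of them. Spink5, the gene of the skin protease inhibitor LEKTI, had 47.4, 81.2 and 89.4 FPKM in CRC, against 0.101, 0.0269 and 0.0368 FPKM in EpiC (log2 difference 6.08, SE 0.26, adjusted p = 0.00229). Sprr1b, a small proline-rich precursor of the envelope, had 117, 183 and 53.8 FPKM in CRC, against 0, 0.0479 and 0.0857 FPKM in EpiC (log2 difference 6.67, SE 0.38, adjusted p = 0.00379). Tgm1, the transglutaminase that crosslinks the envelope, was not called: it had 31.7, 29.3 and 29.8 FPKM in CRC, against 32.8, 3.42 and 1.59 FPKM in EpiC, and the highest value of all was the CYP19A1 EpiC library. Cdsn, corneodesmosin, had 25.7, 45.2 and 52.9 FPKM in CRC and 2.46, 1.90 and 75.7 FPKM in EpiC, so its Brca1mm pair ran against the other pairs, and it was called in CYP19A1 and Brca1mp alone (3.47, adjusted p = 0.00604). Krtdap, Dmkn, Sbsn, Spink5 and Sprr1b were called whichever library was left out.

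Sbsn, Dmkn and Krtdap are neighbours on mouse chromosome 7. Their promoters are shown because the 3 genes rose together and because each holds a match to the AP-1 motif TGANTCA, a motif that reads nearly alike on both strands and that Fos and Jun proteins bind in many keratinocyte genes. The windows are the 250 bases before the gene start on the + strand of GRCm38.p6, from RefSeq, a later build than the mm9 used for the deposited values. The match is in capitals.
Sbsn, chr7:30751221-30751470: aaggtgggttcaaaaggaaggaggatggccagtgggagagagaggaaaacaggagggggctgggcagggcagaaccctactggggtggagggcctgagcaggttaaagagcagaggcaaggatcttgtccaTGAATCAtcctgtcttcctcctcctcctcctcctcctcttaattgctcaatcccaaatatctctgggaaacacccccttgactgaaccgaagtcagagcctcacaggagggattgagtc
Dmkn, chr7:30763506-30763755: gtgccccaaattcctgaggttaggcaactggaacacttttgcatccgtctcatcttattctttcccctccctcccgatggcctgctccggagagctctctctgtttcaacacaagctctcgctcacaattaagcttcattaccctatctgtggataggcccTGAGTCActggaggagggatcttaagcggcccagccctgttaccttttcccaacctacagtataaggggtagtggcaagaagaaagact
Krtdap, chr7:30787655-30787904: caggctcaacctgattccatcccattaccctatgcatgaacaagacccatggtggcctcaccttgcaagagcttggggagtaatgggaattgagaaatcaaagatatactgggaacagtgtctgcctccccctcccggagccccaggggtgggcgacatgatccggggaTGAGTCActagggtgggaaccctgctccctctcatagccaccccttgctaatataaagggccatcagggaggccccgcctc
Counting the base before the start as -1, the match begins at -119 in Sbsn, -89 in Dmkn and -81 in Krtdap. All 3 of the promoters listed for Dmkn held it. Both strands were searched. Of the 20 tested members of the cornified list that have a promoter in the table, 9 (45.0%) held the motif, and so did 7 of 15 that rose (46.7%). The motif was in the promoters of 5.78% of the 8937 tested genes with a promoter and of 7.82% of all 27025 genes of the table. The TATA letters TATAAA were also frequent, in 45.0% of the cornified members and 7.89% of the tested genes. A match is a description of the letters and not evidence of binding in these cultures.

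Transcription factors that set epithelial and stratified identity rose in 12 of 20 cases and fell in 0 (median log2 difference 2.80), and 12 rose in CYP19A1 and Brca1mp alone (2.07). The 12 that rose became 7 to 10 without a CYP19A1 library, 2 to 3 without a Brca1mp library and 12 without a Brca1mm library. Zfp750, a zinc finger factor of late epidermal differentiation, had 38.2, 41.1 and 37.2 FPKM in CRC cultures, against 0.0253, 0.0402 and 0.0367 FPKM in EpiC cultures (log2 difference 5.27, SE 0.16, adjusted p = 0.00171). Grhl3, a grainyhead factor needed for the skin barrier, had 13.6, 18.7 and 14.5 FPKM in CRC, against 0.134, 0.0711 and 0 FPKM in EpiC (log2 difference 3.95, SE 0.20, adjusted p = 0.00305). Tfap2c, an AP-2 factor of ectodermal and mammary epithelium, had 18.6, 15.7 and 9.18 FPKM in CRC, against 0.715, 0.235 and 0.0216 FPKM in EpiC (log2 difference 3.53, SE 0.20, adjusted p = 0.00354). All CRC values of these genes exceeded all EpiC values, which were under 1 FPKM. Trp63, the gene of p63, the master regulator of basal cells, had 77.5, 40.03 and 32.8 FPKM in CRC, against 14.1, 1.77 and 7.19 FPKM in EpiC (log2 difference 2.77, SE 0.41, adjusted p = 0.0194); the CYP19A1 libraries were the highest in each medium, and the groups did not overlap. The epithelial splicing factor gene Esrp1 had 66.98, 60.9 and 64.8 FPKM in CRC, against 19.5, 12.9 and 0.0445 FPKM in EpiC, and was called in CYP19A1 and Brca1mp alone (1.94, adjusted p = 0.0104). Gata3, a luminal regulator, had 8.58, 11.9 and 8.49 FPKM in CRC and 15.2, 11.01 and 0.425 FPKM in EpiC and was not called. Among 17 luminal genes 5 rose and 2 fell (median 1.00), and in CYP19A1 and Brca1mp alone 5 of 14 rose and 2 fell. The 5 that rose became 2 to 3 without a CYP19A1 library, 0 without a Brca1mp library and 5 without a Brca1mm library. Wnt4, a progesterone-induced ligand of luminal cells, had 13.8, 15.3 and 9.35 FPKM in CRC, against 0.935, 0.330 and 1.26 FPKM in EpiC (log2 difference 2.91, SE 0.32, adjusted p = 0.0123), while the antibacterial lipocalin Lcn2 had 295, 449 and 1019.5 FPKM in CRC, against 1709, 1203 and 4948 FPKM in EpiC (log2 difference -2.08, SE 0.27, adjusted p = 0.0155). Esr1, the oestrogen receptor gene, was low in all 6 libraries, with 1.55, 1.14 and 1.13 FPKM in CRC and 1.94, 1.27 and 1.07 FPKM in EpiC. Of 7 tested contractile genes of myoepithelium 1 (Tpm2) rose and 0 fell, beside 11.4% and 11.7% of all genes. In CYP19A1 and Brca1mp alone 1 of 7 rose and 2 fell, beside 8.39% and 9.48% of all genes. Acta2, smooth muscle actin, had 83.3, 127 and 416 FPKM in CRC and 136, 100.1 and 67.04 FPKM in EpiC. Lcn2 was not called with no replicate block (adjusted p = 0.051). Zfp750 and Grhl3 were called whichever library was left out, and Tfap2c, Trp63, Wnt4 and Lcn2 lost the call without 1 or more libraries, with largest adjusted p-values of 0.0522 to 0.0771 (without the CRC Brca1mp and CRC CYP19A1 libraries, each in turn).

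**Figure D2:**
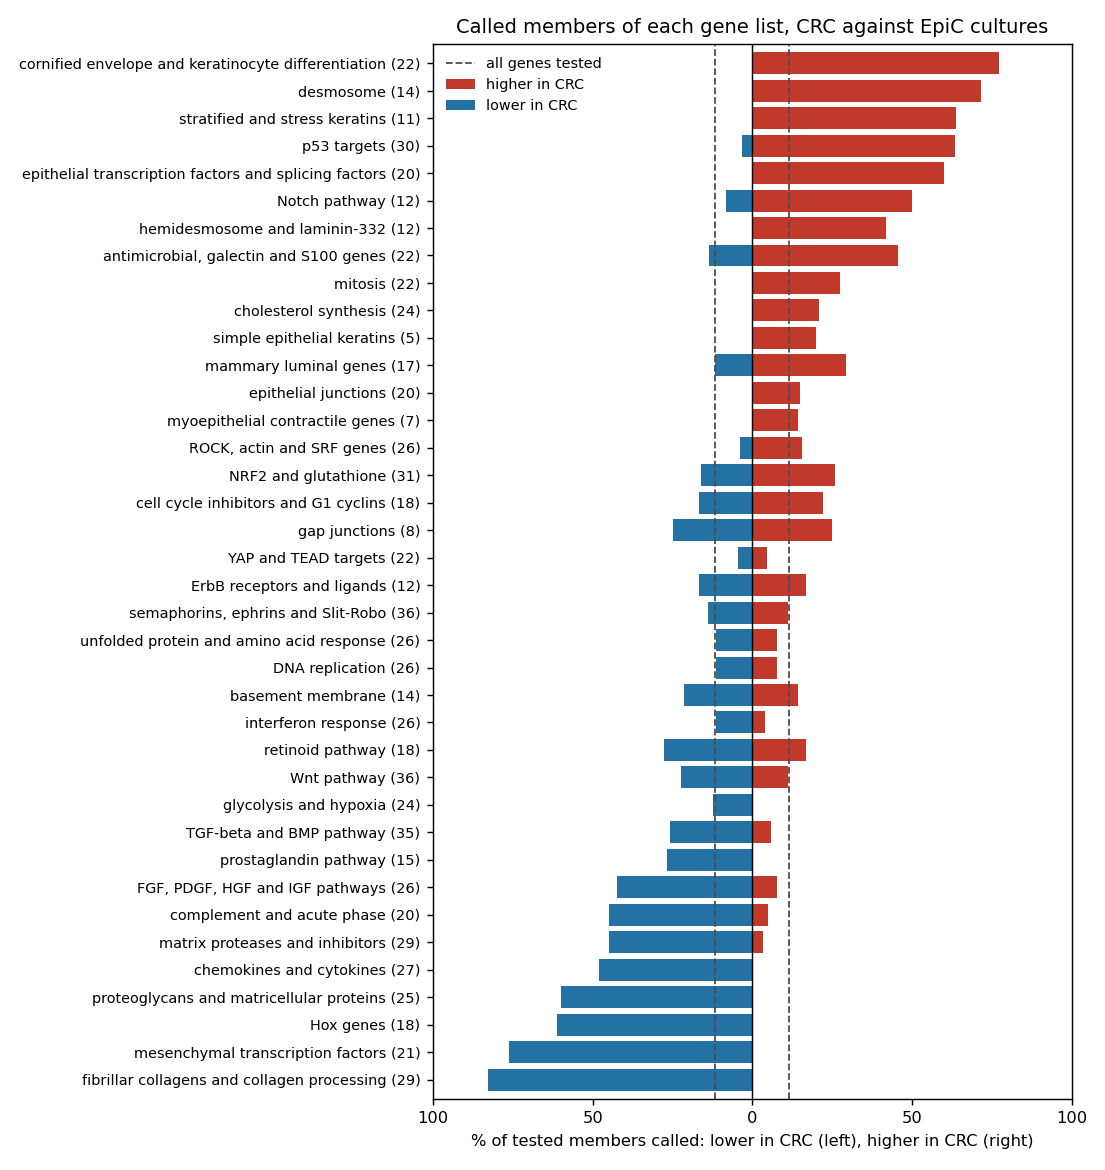
Share of tested members of each gene list, other than the cell type markers, that were called higher (red, to the right) or lower (blue, to the left) in CRC than in EpiC cultures, with the number tested in brackets; the dashed lines are the shares over all genes tested, 11.4% higher and 11.7% lower. Cornified envelope and desmosome genes reach furthest to the right, and collagens, mesenchymal transcription factors and Hox genes furthest to the left.

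Mesenchymal transcription factors and interstitial matrix ran the other way. Of 21 mesenchymal factors 0 rose and 16 fell in CRC (median log2 difference -2.22; 15 of 19 fell in CYP19A1 and Brca1mp alone). The 16 that fell became 5 to 6 without a CYP19A1 library, 2 without a Brca1mp library and 15 to 17 without a Brca1mm library. Zeb2, which represses E-cadherin, had 0.144, 0.140 and 0.287 FPKM in CRC cultures, against 8.47, 7.95 and 12.2 FPKM in EpiC cultures (log2 difference -3.13, SE 0.20, adjusted p = 0.00491). Twist1, a factor of mesoderm and of epithelial to mesenchymal transition, had 3.69, 3.73 and 10.3 FPKM in CRC, against 47.05, 41.3 and 51.3 FPKM in EpiC (log2 difference -2.91, SE 0.28, adjusted p = 0.00989). The EpiC values of both genes were alike in the 3 genotypes, including the 2 in which epithelial genes were present. Snai2, a Snail-family factor that mammary basal cells also make, was not called, with 27.5, 26.7 and 19.8 FPKM in CRC and 17.2, 19.8 and 39.3 FPKM in EpiC. Of 29 fibrillar collagens and their processing enzymes 24 fell and 0 rose (median -3.10; 26 fell in CYP19A1 and Brca1mp alone). The 24 that fell became 17 to 18 without a CYP19A1 library, 10 to 11 without a Brca1mp library and 26 without a Brca1mm library. Pcolce, which speeds the cleavage of procollagen, had 4.27, 2.13 and 4.98 FPKM in CRC, against 389, 399.8 and 856 FPKM in EpiC (log2 difference -6.79, SE 0.24, adjusted p = 0.00171). Loxl1, an elastin and collagen crosslinking oxidase, had 0.637, 0.705 and 1.11 FPKM in CRC, against 108, 79.1 and 103 FPKM in EpiC (log2 difference -5.75, SE 0.18, adjusted p = 0.00171). Proteoglycans and matricellular proteins fell in 15 of 25 cases (median -2.53), and in CYP19A1 and Brca1mp alone 1 of 24 rose and 17 fell. The 15 that fell became 10 without a CYP19A1 library, 8 without a Brca1mp library and 17 without a Brca1mm library. Among those that fell was Fbn1, the gene of fibrillin-1, with 0.725, 0.948 and 2.41 FPKM in CRC, against 52.9, 50.5 and 87.1 FPKM in EpiC (log2 difference -4.79, SE 0.16, adjusted p = 0.00171). Vcan and Tnc, which encode versican and tenascin-C, were not called, and Vcan had 18.9997, 30.9 and 31.8 FPKM in CRC and 24.96, 33.7 and 49.9 FPKM in EpiC, with overlapping groups. Of 14 basement membrane genes 2 rose (Col18a1 and the anchoring fibril collagen gene Col7a1), 3 fell (Lama4, Lamb1 and Hspg2) and 9 were not called. Over all genes 11.4% rose and 11.7% fell. In CYP19A1 and Brca1mp alone 2 of 15 rose and 4 fell. Without a CYP19A1 library 0 rose and 1 fell, without a Brca1mp library 0 rose and 0 fell, and without a Brca1mm library 2 rose and 4 fell. Matrix proteases and inhibitors fell in 13 of 29 cases, and in CYP19A1 and Brca1mp alone 2 of 29 rose and 16 fell. The 13 that fell became 4 without a CYP19A1 library, 2 without a Brca1mp library and 16 without a Brca1mm library. The 1 that rose over 3 genotypes was Serpinb5 (maspin), an epithelial serpin, with 314, 317 and 309.8 FPKM in CRC, against 19.8, 43.6 and 0.164 FPKM in EpiC. Of the 16 tested fibroblast markers 12 fell and 0 rose (median -3.11; 12 of 15 in CYP19A1 and Brca1mp alone). The 12 that fell became 7 without a CYP19A1 library, 5 without a Brca1mp library and 12 without a Brca1mm library. Pdgfrb, a receptor of fibroblasts and pericytes, had 0.341, 0.346 and 0.258 FPKM in CRC, against 64.7, 61.7 and 44.9 FPKM in EpiC (log2 difference -5.45, SE 0.18, adjusted p = 0.00171), and Vim (vimentin) had 149, 229 and 368 FPKM in CRC, against 1699, 1696 and 1307 FPKM in EpiC (log2 difference -2.74, SE 0.36, adjusted p = 0.0159). The summed fibroblast markers moved with all of these groups, at 442 to 702 FPKM in CRC against 4949 to 9698 FPKM in EpiC cultures, and their part in the differences was not tested. Pcolce, Loxl1, Fbn1 and Pdgfrb were called whichever library was left out, and Zeb2, Twist1 and Vim lost the call without 1 or more libraries, with largest adjusted p-values of 0.0569 to 0.104 (without the CRC Brca1mp and EpiC Brca1mp libraries, each in turn).

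Hox genes, which carry positional identity and are also expressed in stromal cells, fell in 11 of 18 tested cases and rose in 0 (median -2.06; 8 of 15 fell in CYP19A1 and Brca1mp alone). Another 21 of the 39 listed averaged under 1 FPKM and were not tested. The list summed to 14.1 to 26.7 FPKM in CRC and 73.2 to 166 FPKM in EpiC cultures. Members thus passed the filter mostly through EpiC, which favours a fall. With no filter 8 of 34 fell and 0 rose (median -1.13). The 11 that fell became 1 without a CYP19A1 library, 0 without a Brca1mp library and 8 to 9 without a Brca1mm library. Hoxc8 had 0, 0.0192 and 0 FPKM in CRC cultures, against 4.66, 2.28 and 6.58 FPKM in EpiC cultures (log2 difference -2.37, SE 0.33, adjusted p = 0.0173). Hoxb4, by contrast, had 3.05, 3.08 and 3.16 FPKM in CRC and 2.87, 1.98 and 2.70 FPKM in EpiC. The groups did not overlap for either gene, but only Hoxc8 was called, and the fall covered genes of the a, b, c and d clusters. Hoxc8 lost the call without 1 or more libraries, with a largest adjusted p of 0.0796 (without the EpiC CYP19A1 library).

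ROCK inhibition is part of the usual CRC method, so the genes of that pathway were set side by side. Of 26 tested genes of ROCK, actin and SRF signalling 4 rose and 1 fell (median 0.16), beside 11.4% and 11.7% of all genes. In CYP19A1 and Brca1mp alone 4 of 26 rose and 2 fell. Rock1 and Rock2, the kinases themselves, were not called: Rock1 had 16.9, 18.7 and 17.1 FPKM in CRC cultures and 12.9, 10.9 and 8.35 FPKM in EpiC cultures, and Rock2 had 23.2, 24.7 and 30.6 FPKM in CRC and 25.8, 25.99 and 13.5 FPKM in EpiC. Limk2, a ROCK substrate that phosphorylates cofilin, had 49.3, 46.5 and 44.6 FPKM in CRC, against 14.7, 11.8 and 5.29 FPKM in EpiC (log2 difference 2.15, SE 0.28, adjusted p = 0.016). Ppp1r12a, the myosin phosphatase subunit that ROCK inhibits, had 24.5, 22.2 and 19.2 FPKM in CRC, against 9.64, 10.9 and 8.47 FPKM in EpiC (log2 difference 1.11, SE 0.16, adjusted p = 0.0187). Limk2 and Ppp1r12a did not overlap between media. Of 22 YAP and TEAD targets 1 rose and 1 fell, and in CYP19A1 and Brca1mp alone 1 of 22 rose and 2 fell, each a share under that of all genes. The widely used target Ctgf had 16.9, 128 and 242 FPKM in CRC and 136, 193 and 149 FPKM in EpiC, with overlapping groups. Ankrd1, another, had 1.55, 58.0003 and 75.7 FPKM in CRC and 87.7, 95.9 and 27.2 FPKM in EpiC; in both genes the CYP19A1 CRC library was the lowest of the 6. Limk2 and Ppp1r12a lost the call without 1 or more libraries, with largest adjusted p-values of 0.0945 to 0.111 (without the CRC Brca1mp library).

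Many target genes of p53 were higher in CRC cultures; all cultures, CRC and EpiC, carried 1 mutant Trp53 allele. p53 is a stress-activated transcription factor whose targets arrest the cell cycle, repair DNA or start cell death. Ccng1, cyclin G1, had 394, 397 and 423 FPKM in CRC cultures, against 21.3, 33.3 and 28.1 FPKM in EpiC cultures (log2 difference 3.85, SE 0.19, adjusted p = 0.00279). Cdkn1a, the gene of the cyclin-dependent kinase inhibitor p21, had 246, 221 and 244 FPKM in CRC, against 14.8, 36.5 and 18.9 FPKM in EpiC (log2 difference 3.39, SE 0.32, adjusted p = 0.00979). Eda2r, a death receptor of the TNF receptor family, had 13.5, 19.7 and 18.1 FPKM in CRC, against 0.196, 0.296 and 0.320 FPKM in EpiC (log2 difference 3.82, SE 0.19, adjusted p = 0.00284). No EpiC library of these genes came near any CRC library, and the CRC values were alike in the 3 genotypes. Trp53inp1, a p53-induced nuclear protein, had 48.3, 44.6 and 46.4 FPKM in CRC, against 7.68, 5.54 and 6.63 FPKM in EpiC (log2 difference 2.65, SE 0.16, adjusted p = 0.00415), and the antiproliferative gene Btg2 had 32.1, 29.7 and 31.2 FPKM in CRC, against 5.42, 4.80 and 6.82 FPKM in EpiC (log2 difference 2.27, SE 0.17, adjusted p = 0.00644). Aen, an apoptosis-enhancing nuclease, had 23.5, 23.4 and 23.7 FPKM in CRC, against 2.23, 4.29 and 3.42 FPKM in EpiC (log2 difference 2.54, SE 0.21, adjusted p = 0.00733). Of 30 tested targets 19 rose and 1 fell (median log2 difference 1.49), and 18 rose and 1 fell in CYP19A1 and Brca1mp alone (1.46). The 19 that rose became 9 to 11 without a CYP19A1 library, 4 without a Brca1mp library and 18 without a Brca1mm library. The 1 that fell was Fas, another death receptor, with 21.4, 4.36 and 5.81 FPKM in CRC, against 46.9, 23.2 and 49.7 FPKM in EpiC (log2 difference -2.06, SE 0.38, adjusted p = 0.0292). Some targets were not called: the pro-apoptotic gene Bax had 47.04, 77.9 and 66.3 FPKM in CRC and 39.9, 49.4 and 64.5 FPKM in EpiC, and Mdm2, which encodes the ligase that degrades p53, had 25.4, 18.1 and 18.6 FPKM in CRC and 11.04, 16.6 and 10.1 FPKM in EpiC. The Mdm2 values did not overlap and the Bax values did. Trp53 itself had 26.7, 19.3 and 13.3 FPKM in CRC, against 29.4, 2.09 and 4.24 FPKM in EpiC, and the groups overlapped, since its CYP19A1 EpiC library was the highest of the 6 while the other EpiC libraries were the lowest. Ccng1, Cdkn1a and Eda2r were called whichever library was left out, and Trp53inp1, Btg2, Aen and Fas lost the call without 1 or more libraries, with largest adjusted p-values of 0.0524 to 0.141 (without the CRC Brca1mp library).

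Cdkn1a has 2 promoters in the table, and the window of 1 of them is shown because it holds the letters CATG, any 6 bases and CATG again, the spacing of the cores of a p53 binding element. The capitals are the match, which begins at -48.
Cdkn1a, chr17:29090729-29090978: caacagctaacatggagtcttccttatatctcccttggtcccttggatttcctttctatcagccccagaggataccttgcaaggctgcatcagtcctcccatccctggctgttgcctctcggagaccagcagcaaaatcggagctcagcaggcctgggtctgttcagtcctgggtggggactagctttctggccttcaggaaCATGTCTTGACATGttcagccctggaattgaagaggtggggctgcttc
The letters were found in 1 of 25 tested p53 targets with a promoter in the table (4.0%), in 0.324% of the 8937 tested genes and in 0.57% of all genes of the table. The other targets searched held no such letters within 250 bases, and tested targets without a listed promoter were not searched.

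**Figure D3:**
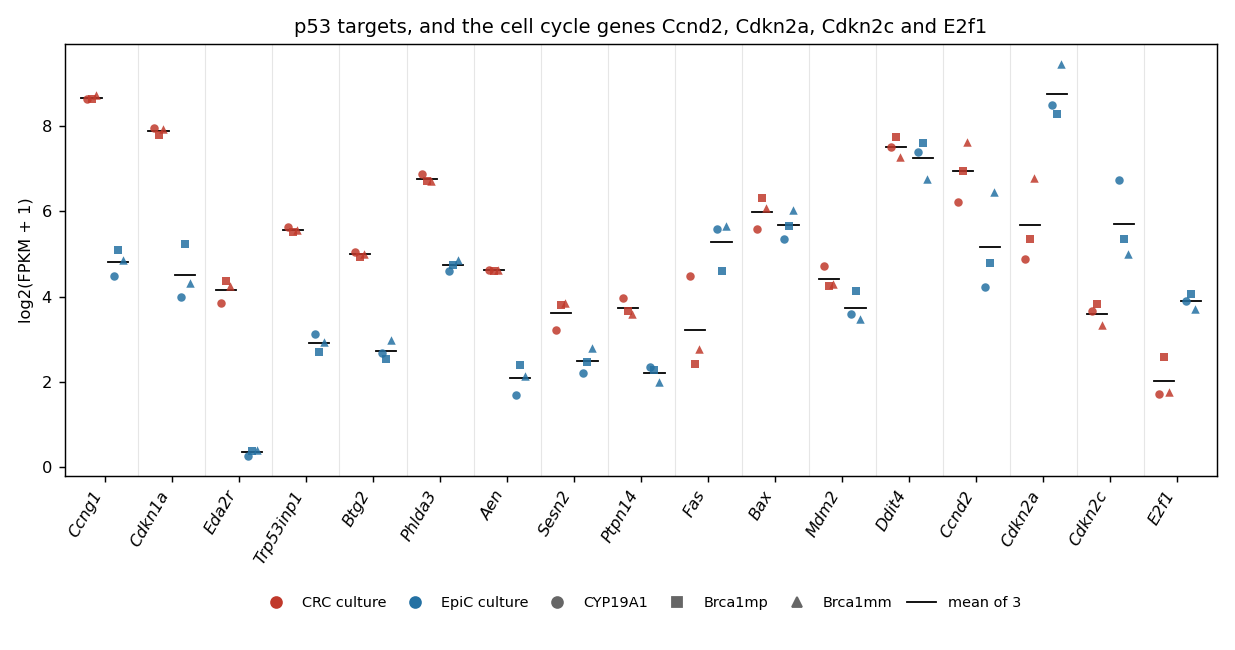
Level of each gene, as log2(FPKM + 1) on the vertical axis, in the 3 CRC cultures (red, left of each pair) and the 3 EpiC cultures (blue, right of each pair); marker shapes are genotypes and black lines the mean of 3 libraries. From Ccng1 to Ptpn14 every CRC library lies above every EpiC library; Fas, Cdkn2a, Cdkn2c and E2f1 show the opposite order, and Bax, Mdm2 and Ddit4 were not called.

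Cdkn2a, the gene of the senescence-associated proteins p16Ink4a and p19Arf, ran opposite to Cdkn1a. It had 28.4, 39.6 and 109.9 FPKM in CRC cultures, against 360.4, 311 and 707 FPKM in EpiC cultures (log2 difference -3.08, SE 0.24, adjusted p = 0.00692). Brca1mm was the highest genotype in both media, and the groups did not overlap. Cdkn2c, which encodes the inhibitor p18Ink4c, had 11.6, 13.1 and 9.01 FPKM in CRC, against 106, 39.8 and 31.2 FPKM in EpiC (log2 difference -2.10, SE 0.36, adjusted p = 0.0254). The G1 cyclin Ccnd2 had 73.9, 123 and 198 FPKM in CRC, against 17.8, 26.5 and 86.9 FPKM in EpiC (log2 difference 1.78, SE 0.25, adjusted p = 0.018), with the Brca1mm EpiC library inside the CRC range. With no replicate block Ccnd2 was not called (adjusted p = 0.0741). Of 18 cell cycle inhibitors and G1 genes 4 rose and 3 fell, and in CYP19A1 and Brca1mp alone 3 of 18 rose and 4 fell. Mitosis genes rose in 6 of 22 cases and fell in 0, with a median log2 difference of 0.51, and in CYP19A1 and Brca1mp alone 3 rose. The count rests on the genotype term and on single libraries: 2 rose with no replicate block and 1 with no filter. The 6 that rose became 0 without a CYP19A1 library, 0 without a Brca1mp library and 2 without a Brca1mm library. Cenpf, a kinetochore protein, had 10.1, 7.02 and 4.10 FPKM in CRC, against 3.21, 2.88 and 1.92 FPKM in EpiC (log2 difference 1.08, SE 0.20, adjusted p = 0.0303). In each medium Cenpf was highest in CYP19A1 and lowest in Brca1mm. Of 26 DNA replication genes 2 rose and 3 fell, shares at or under the 11.4% and 11.7% of all genes, and in CYP19A1 and Brca1mp alone 2 of 26 rose and 1 fell. The ribonucleotide reductase gene Rrm1 had 98.01, 106 and 65.9 FPKM in CRC, against 33.1, 49.9 and 37.1 FPKM in EpiC (log2 difference 1.14, SE 0.20, adjusted p = 0.0266), and the licensing factor gene Cdt1 had 10.3, 7.45 and 6.25 FPKM in CRC, against 22.7, 19.96 and 19.7 FPKM in EpiC (log2 difference -1.29, SE 0.17, adjusted p = 0.0163). Cdkn2a, Cdkn2c, Ccnd2, Cenpf, Rrm1 and Cdt1 lost the call without 1 or more libraries, with largest adjusted p-values of 0.0612 to 0.159 (without the CRC Brca1mp library).

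In the Notch pathway several members rose. Jag1, a Notch ligand of basal cells, had 33.8, 26.5 and 31.9 FPKM in CRC cultures, against 1.98, 3.73 and 1.81 FPKM in EpiC cultures (log2 difference 3.21, SE 0.27, adjusted p = 0.00762). Notch1, a receptor, had 45.6, 18.3 and 17.6 FPKM in CRC, against 2.51, 2.83 and 1.04 FPKM in EpiC (log2 difference 3.08, SE 0.31, adjusted p = 0.0105). Nrarp, a target and feedback inhibitor, had 22.3, 38.3 and 35.4 FPKM in CRC, against 4.81, 4.68 and 0.0468 FPKM in EpiC (log2 difference 3.31, SE 0.64, adjusted p = 0.0325). These 3 genes did not overlap between media. Rbpj, the DNA-binding partner of the cleaved receptor, went the other way, with 10.2, 5.53 and 7.87 FPKM in CRC, against 54.4, 45.4 and 48.8 FPKM in EpiC (log2 difference -2.54, SE 0.18, adjusted p = 0.00588). Of 12 tested Notch genes 6 rose and 1 fell (median 1.49), and in CYP19A1 and Brca1mp alone 5 of 12 rose and 1 fell. The 6 that rose became 3 to 4 without a CYP19A1 library, 2 without a Brca1mp library and 5 without a Brca1mm library. Jag1 and Notch1 were called whichever library was left out, and Nrarp and Rbpj lost the call without 1 or more libraries, with largest adjusted p-values of 0.0562 to 0.128 (without the CRC Brca1mp library).

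Ligands that stroma usually supplies to epithelium were lower in CRC. Fgf7, keratinocyte growth factor, had 1.004, 0.320 and 0.953 FPKM in CRC cultures, against 128, 131 and 245 FPKM in EpiC cultures (log2 difference -6.54, SE 0.24, adjusted p = 0.00181). Hgf, the ligand of Met, had 0.355, 0.413 and 0.628 FPKM in CRC, against 12.8, 17.2 and 45.97 FPKM in EpiC (log2 difference -3.96, SE 0.35, adjusted p = 0.00835). Fgfr2, the gene from which the epithelial receptor of Fgf7 is made, had the reverse order, with 16.1, 17.2 and 11.2 FPKM in CRC, against 0.699, 0.909 and 5.36 FPKM in EpiC (log2 difference 2.51, SE 0.55, adjusted p = 0.0408). FPKM per gene do not tell that receptor from other products of Fgfr2. Met had 54.7, 48.2 and 52.5 FPKM in CRC and 25.8, 28.1 and 8.39 FPKM in EpiC and was not called. Of 26 FGF, PDGF, HGF and IGF genes 2 rose and 11 fell, and in CYP19A1 and Brca1mp alone 4 of 26 rose and 13 fell. The 11 that fell became 7 without a CYP19A1 library, 3 without a Brca1mp library and 13 without a Brca1mm library. In the TGF-beta and BMP list 2 of 35 rose and 9 fell, and in CYP19A1 and Brca1mp alone 2 of 34 rose and 13 fell. The 9 that fell became 4 without a CYP19A1 library, 1 without a Brca1mp library and 13 without a Brca1mm library. Both that rose over 3 genotypes act on BMP or activin signals: Bmp7, a ligand, had 13.5, 14.9 and 14.03 FPKM in CRC, against 0.122, 0.0177 and 0 FPKM in EpiC (log2 difference 3.86, SE 0.19, adjusted p = 0.00283), and Fst, follistatin, which binds activin, had 88.9, 151 and 259.5 FPKM in CRC, against 15.6, 8.90 and 12.02 FPKM in EpiC (log2 difference 3.57, SE 0.41, adjusted p = 0.0127). The EpiC level of Bmp7 was under 1 FPKM in every library. Fstl1, a secreted relative of follistatin, had 7.28, 6.80 and 8.001 FPKM in CRC, against 458, 500.0 and 436 FPKM in EpiC (log2 difference -5.80, SE 0.16, adjusted p = 0.00171). Of 36 Wnt genes 4 rose and 8 fell, and in CYP19A1 and Brca1mp alone 6 of 35 rose and 11 fell. The 8 that fell became 2 to 3 without a CYP19A1 library, 1 without a Brca1mp library and 9 to 11 without a Brca1mm library. The secreted inhibitor gene Sfrp2 had 0.104, 0.161 and 0.565 FPKM in CRC, against 128, 24.6 and 538 FPKM in EpiC (log2 difference -6.58, SE 0.79, adjusted p = 0.0135), and Rspo3, which amplifies Wnt signals, was at 0 in all 3 CRC cultures, against 2.11, 7.74 and 7.05 FPKM in EpiC. No fold is given against a group at 0, since the depth is unknown. In the ErbB list 2 of 12 rose and 2 fell, and in CYP19A1 and Brca1mp alone 2 of 13 rose and 2 fell. The receptor gene Egfr had 44.7, 26.5 and 33.2 FPKM in CRC, against 20.6, 14.2 and 23.4 FPKM in EpiC (log2 difference 0.81, SE 0.19, adjusted p = 0.0451), and Lrig1, which restrains ErbB receptors, had 6.66, 9.25 and 10.2 FPKM in CRC, against 48.02, 56.97 and 34.4 FPKM in EpiC (log2 difference -2.28, SE 0.26, adjusted p = 0.0125). Egfr was not called with no replicate block (adjusted p = 0.0609). Fgf7, Bmp7 and Fstl1 were called whichever library was left out, and Hgf, Fgfr2, Fst, Sfrp2, Egfr and Lrig1 lost the call without 1 or more libraries, with largest adjusted p-values of 0.0663 to 0.2 (without the CRC Brca1mp, CRC CYP19A1 and EpiC Brca1mp libraries, each in turn).

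Inflammatory and defence genes split by kind. Among antimicrobial, galectin and S100 genes more rose than fell. Defb14, a beta-defensin, had 143, 499 and 552 FPKM in CRC cultures and 0 FPKM in all 3 EpiC cultures, and Defb1 had 31.9, 58.4 and 49.6 FPKM in CRC, against 0.0517, 0.0417 and 0.0748 FPKM in EpiC (log2 difference 5.45, SE 0.23, adjusted p = 0.00229). The CRC and EpiC values of both defensins were far apart. S100a16, a calcium-binding protein of epithelia, had 303, 365 and 420.4 FPKM in CRC, against 19.6, 13.6 and 49.7 FPKM in EpiC (log2 difference 3.86, SE 0.34, adjusted p = 0.00844). Camp, the cathelicidin gene, was the reverse of Defb14, at 0 FPKM in all 3 CRC cultures, against 24.8, 29.3 and 194 FPKM in EpiC. Of 22 tested genes of this list 10 rose and 3 fell (median 2.37), and in CYP19A1 and Brca1mp alone 8 of 22 rose and 2 fell. The 10 that rose became 3 to 5 without a CYP19A1 library, 4 to 5 without a Brca1mp library and 8 without a Brca1mm library. Chemokines and cytokines fell in 13 of 27 cases and rose in 0 (median -2.60; 16 of 28 fell in CYP19A1 and Brca1mp alone). The 13 that fell became 7 to 8 without a CYP19A1 library, 4 without a Brca1mp library and 15 to 16 without a Brca1mm library. Csf1, the growth factor of macrophages, had 6.93, 9.07 and 18.3 FPKM in CRC, against 128, 134 and 174 FPKM in EpiC (log2 difference -3.65, SE 0.22, adjusted p = 0.00417), and the monocyte attractant Ccl7 had 4.69, 1.75 and 7.64 FPKM in CRC, against 304, 202 and 478 FPKM in EpiC (log2 difference -5.92, SE 0.18, adjusted p = 0.00171). The CRC and EpiC values of both genes were separate. Ppbp, a platelet and epithelial chemokine outside the list and among the 12 largest increases, had 761, 694 and 727 FPKM in CRC, against 4.71, 15.7 and 1.66 FPKM in EpiC (log2 difference 6.84, SE 0.55, adjusted p = 0.00733). Complement and acute-phase genes fell in 9 of 20 cases and rose in 1 (median -2.63), and in CYP19A1 and Brca1mp alone 1 of 19 rose and 8 fell. The 9 that fell became 2 to 3 without a CYP19A1 library, 5 to 6 without a Brca1mp library and 8 without a Brca1mm library. The protease gene C1ra, which starts the classical pathway, had 0.881, 0.374 and 0.440 FPKM in CRC, against 51.1, 29.1 and 156 FPKM in EpiC (log2 difference -5.34, SE 0.51, adjusted p = 0.00979), whereas Cd55, which protects cells from complement, had 27.3, 22.9 and 37.2 FPKM in CRC, against 0.840, 1.97 and 0.119 FPKM in EpiC (log2 difference 4.02, SE 0.43, adjusted p = 0.0118). Of 26 interferon response genes 1 rose and 3 fell over 3 genotypes, but in CYP19A1 and Brca1mp alone 0 of 25 rose and 10 fell, beside 9.48% of all genes that fell there. The 3 that fell became 0 without a CYP19A1 library, 0 without a Brca1mp library and 10 without a Brca1mm library. The ubiquitin-like gene Isg15 had 19.3, 27.6 and 44.1 FPKM in CRC and 28.1, 81.3 and 16.1 FPKM in EpiC, with overlapping groups. Defb1, Csf1, Ccl7 and Ppbp were called whichever library was left out, and S100a16, C1ra and Cd55 lost the call without 1 or more libraries, with largest adjusted p-values of 0.0522 to 0.0635 (without the CRC Brca1mp and CRC CYP19A1 libraries, each in turn).

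In metabolism, glutathione and NRF2 genes were split by family member. Gsta4, which conjugates lipid aldehydes, rose by 6.22 on the log2 scale, and Gpx2, an epithelial glutathione peroxidase, had 13.7, 179 and 77.3 FPKM in CRC cultures, against 0.129, 0.935 and 0 FPKM in EpiC cultures (log2 difference 5.51, SE 0.62, adjusted p = 0.0125). Nqo1, a quinone reductase and NRF2 target, had 77.5, 52.9 and 39.8 FPKM in CRC, against 22.1, 21.4 and 11.5 FPKM in EpiC (log2 difference 1.58, SE 0.18, adjusted p = 0.0125). Hmox1, haem oxygenase and another target, ran opposite, with 32.5, 27.6 and 27.5 FPKM in CRC, against 101, 113 and 169 FPKM in EpiC (log2 difference -2.06, SE 0.24, adjusted p = 0.0127). Of 31 genes 8 rose and 5 fell, and in CYP19A1 and Brca1mp alone 9 of 31 rose and 4 fell. The 8 that rose became 3 without a CYP19A1 library, 2 without a Brca1mp library and 9 without a Brca1mm library. Of 24 cholesterol synthesis genes 5 rose and 0 fell (median 1.16), and in CYP19A1 and Brca1mp alone 4 of 24 rose and 0 fell. With no replicate block 10 of them rose, after rescaling 3 and with no filter 0. The 5 that rose became 2 without a CYP19A1 library, 0 without a Brca1mp library and 3 to 4 without a Brca1mm library. Of 24 glycolysis genes 0 rose and 3 fell, a share near the 11.7% of all genes, and in CYP19A1 and Brca1mp alone 0 of 24 rose and 2 fell. Ldha had 1497, 1927 and 1322 FPKM in CRC and 1331, 1547 and 1708 FPKM in EpiC. In the retinoid list 3 of 18 rose and 5 fell, and in CYP19A1 and Brca1mp alone 3 of 17 rose and 4 fell. Crabp2, which carries retinoic acid to its receptor, had 502, 769.7 and 559 FPKM in CRC, against 168, 167 and 24.5 FPKM in EpiC (log2 difference 2.74, SE 0.60, adjusted p = 0.0413), while Rarres2, the chemerin gene, had 0.572, 0.575 and 0.569 FPKM in CRC, against 53.9, 90.9 and 217 FPKM in EpiC (log2 difference -6.04, SE 0.42, adjusted p = 0.00552). Of 15 prostaglandin genes 0 rose and 4 fell (in CYP19A1 and Brca1mp alone 0 of 15 rose and 4 fell), led by prostacyclin synthase, Ptgis, with 0.144, 0.107 and 0.131 FPKM in CRC, against 16.05, 93.8 and 75.1 FPKM in EpiC (log2 difference -5.46, SE 0.55, adjusted p = 0.0105). The secretory pathway factor Creb3l1, an activator of collagen genes, had 2.41, 0.662 and 0.888 FPKM in CRC, against 57.8, 57.9 and 37.3 FPKM in EpiC (log2 difference -4.53, SE 0.26, adjusted p = 0.00379), and of 26 unfolded protein and amino acid response genes 2 rose and 3 fell (in CYP19A1 and Brca1mp alone 4 of 26 rose and 2 fell). Over 3 genotypes the unfolded protein shares were under the 11.4% and 11.7% of all genes. The values of Rarres2, Ptgis and Creb3l1 were separate in the 2 media, and so were those of Crabp2. Of 8 gap junction genes 2 rose (Gjb5 and Panx1) and 2 fell (Gja4 and Gjc1), and in CYP19A1 and Brca1mp alone 3 of 8 rose and 1 fell. In the list of semaphorins, ephrins and Slit-Robo 4 of 36 rose and 5 fell, shares near the 11.4% and 11.7% of all genes. In CYP19A1 and Brca1mp alone 4 of 36 rose and 6 fell. The ephrin receptor gene Epha4 had 13.5, 8.60 and 6.64 FPKM in CRC, against 0.151, 0.286 and 1.03 FPKM in EpiC (log2 difference 2.82, SE 0.38, adjusted p = 0.0169), and Slit3, a ligand of Robo receptors, had 1.29, 0.271 and 0.646 FPKM in CRC, against 32.7, 13.4 and 20.04 FPKM in EpiC (log2 difference -3.69, SE 0.18, adjusted p = 0.00279). Gsta4, Creb3l1 and Slit3 were called whichever library was left out, and Gpx2, Nqo1, Hmox1, Crabp2, Rarres2, Ptgis and Epha4 lost the call without 1 or more libraries, with largest adjusted p-values of 0.0524 to 0.14 (without the CRC Brca1mp library).

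A further 310 genes were called in CYP19A1 and Brca1mp alone and not over 3 genotypes. Cyr61, a matricellular YAP target, had 77.9, 101 and 99.01 FPKM in CRC cultures, against 1124, 597 and 155 FPKM in EpiC cultures, so the Brca1mm EpiC library was the lowest of its medium; the log2 difference in CYP19A1 and Brca1mp alone was -3.19, adjusted p = 0.00995. Mmp3, stromelysin-1, had 1.59, 10.9 and 2.03 FPKM in CRC, against 20.9, 185 and 2238 FPKM in EpiC (-3.52, adjusted p = 0.00475). The Brca1mm EpiC value of Mmp3 was the highest of the 6, so its direction was the same in all 3 genotypes while its size was not. Klk8, a kallikrein protease of the epidermis, had 362, 487 and 495 FPKM in CRC, against 31.9, 100.5 and 0.195 FPKM in EpiC (2.87, adjusted p = 0.011). No group overlap was seen for Klk8, whose Brca1mm EpiC value was the lowest. Prl2c3, a proliferin gene, had 133, 459 and 36.3 FPKM in CRC, against 0.000776, 85.3 and 5.97 FPKM in EpiC (4.74, adjusted p = 0.0456), with overlapping groups; proliferin genes are near-identical copies, so fragments could be split between them. Cthrc1, a secreted protein that limits collagen, had 2.29, 2.34 and 3.31 FPKM in CRC, against 21.9, 52.4 and 5.63 FPKM in EpiC (-3.40, adjusted p = 0.00797). These fits rest on 4 libraries, and without 1 of them and without the genotype term 691 to 837 genes were called.

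The difference between media depended on genotype in few genes that could be called. A test of the Brca1mm difference minus the mean difference of the other genotypes called 22 of 11837 genes (0.186%), 20 with a higher contrast and 2 with a lower one, and 1325 genes had an unadjusted p under 0.05. Only 1 Brca1mm library of each medium enters, so the contrast cannot be separated from those libraries. Rab25, an epithelial recycling GTPase, had 223, 195 and 210.1 FPKM in CRC cultures, against 80.7, 62.2 and 0 FPKM in EpiC cultures (contrast 6.18, adjusted p = 0.0297). Dynap, a membrane protein gene, had 209, 173 and 295 FPKM in CRC and 222, 142 and 0 FPKM in EpiC (contrast 8.11, adjusted p = 0.0297). Wfdc2, a secreted protein of ductal epithelia, had 427, 314 and 355 FPKM in CRC and 1489.8, 554 and 0.310 FPKM in EpiC (contrast 9.39, adjusted p = 0.0297). In these 3 genes the Brca1mm EpiC library was at or near 0 and stood far below the other 5. In Ltf, lactotransferrin, both Brca1mm libraries stood out, with 20.9, 374 and 1350.0 FPKM in CRC, against 3.97, 66.5 and 0.635 FPKM in EpiC (contrast 7.38, adjusted p = 0.0297): the CRC library was the highest and the EpiC library the lowest. The 2 lower contrasts were Rpl39l, a ribosomal protein paralogue mostly made in testis, with 0, 1.33 and 0 FPKM in CRC and 0, 2.55 and 235 FPKM in EpiC (contrast -7.58, adjusted p = 0.0411), and Wfdc17, with 0.125, 0.142 and 0 FPKM in CRC and 1.27, 1.79 and 220.2 FPKM in EpiC (contrast -6.64, adjusted p = 0.0427). Both were nearly absent outside the Brca1mm EpiC library. Gpnmb, a glycoprotein of macrophages and melanocytes, had 0.976, 0.825 and 0.372 FPKM in CRC and 0.514, 2.15 and 144 FPKM in EpiC, and Chil1, a secreted chitinase-like protein, had 3.03, 7.69 and 1.23 FPKM in CRC and 6.91, 10.5 and 144 FPKM in EpiC; neither contrast was called. Krt5, Col17a1, Zfp750 and Bgn were not among the 22, and Bgn, biglycan, had 6.91, 4.07 and 7.85 FPKM in CRC, against 1903, 1233 and 1943 FPKM in EpiC, a difference of like size in each genotype. Without any 1 of the CYP19A1 or Brca1mp libraries, with no genotype term, 0 genes were called by limma, and with a pseudocount of 0.1 in place of 1 there were 131.

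**Figure D4:**
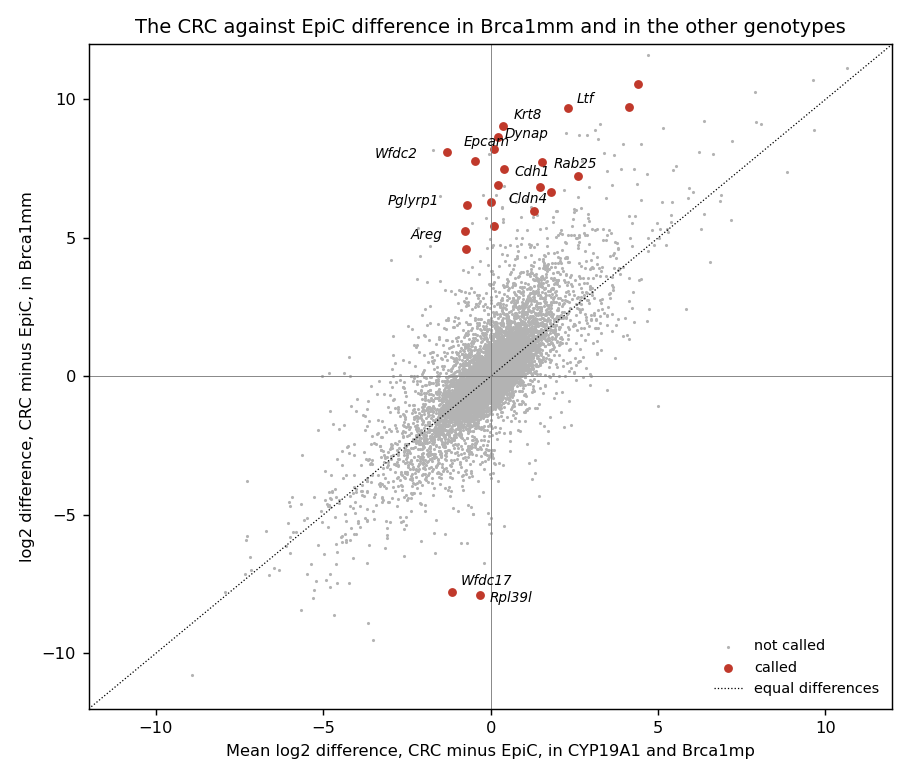
Each point is 1 of 11837 genes, with the mean CRC minus EpiC difference in CYP19A1 and Brca1mp on the horizontal axis and the difference in Brca1mm on the vertical axis, both as log2(FPKM + 1); red points are the 22 called genes. Of these, 20 lie above the dotted line of equal differences, most of them near 0 on the horizontal axis, and Rpl39l and Wfdc17 lie below it.

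Allografts of the cells in the mammary glands of nude mice were sequenced too, 7 from CRC and 3 from EpiC cultures, and the difference in culture was set against the difference between allografts of the same origins; Brca1mm had no EpiC allograft. A test of the culture difference minus the allograft difference called 1506 of 12325 genes (12.2%), 723 with a higher contrast (5.87%) and 783 with a lower one (6.35%). It treats allografts as independent, but the labels do not say whether those of a genotype share a culture or a host mouse. If they do, its p-values are too small. The count was 760 without the Brca1mm CRC culture, 968 without the Brca1mp CRC culture and 797 without all Brca1mm libraries. The genes named next were chosen for their difference in culture or as markers, not by this contrast. Because the same culture libraries enter it, a large contrast in the culture direction was favoured in advance for them. Krtdap was between 0 and 3.92 FPKM in CRC allografts (median 0.0900), against 0.107 to 6.36 FPKM in EpiC allografts (median 0.174; contrast 9.69, adjusted p = 2.52e-05). Bgn, biglycan, was between 499 and 2642 FPKM in CRC allografts (median 1799.7), against 204 to 2034 FPKM in EpiC allografts (median 277; contrast -9.38, adjusted p = 1.01e-05). The ranges overlapped in both genes, and the CRC level of Bgn was high in allografts and low in culture. Ccng1 was between 17.7 and 36.4 FPKM in CRC allografts (median 27.7), against 23.7 to 43.4 FPKM in EpiC allografts (median 34.3; contrast 4.28, adjusted p = 2.02e-05), ranges that overlap those of the EpiC cultures. Cdkn2a was between 97.6 and 300.2 FPKM in CRC allografts (median 196), against 19.6 to 258 FPKM in EpiC allografts (median 52.8; contrast -4.13, adjusted p = 0.00847). Its CRC allografts reached higher than its EpiC allografts, the reverse of the cultures. Allografts hold host tissue, whose part in these levels was not tested.

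Cells of 2 mammary cancers, of Brca1mp genotype, were also grown in both ways, with 1 CRC and 1 EpiC library each in a separately normalised table, so no test was made. Of the 2243 called genes that averaged 1 FPKM or more there, 657 (29.3%) had the direction of the normal cultures in both cancers and 580 (25.9%) the opposite direction in both, beside 2908 (27.3%) and 2977 (27.9%) of all 10660 such genes. Among the 224 called genes with an absolute log2 difference of at least 3, the shares were 46.9% and 21.0%. Stratified keratins and most cornified genes had the same direction in the cancers, and most desmosome and hemidesmosome genes did not. Krt5 had 24.03 and 917 FPKM in the CRC cultures of cancers 1 and 2, against 0.198 and 0.193 FPKM in their EpiC cultures. Dmkn had 44.3 and 230.1 FPKM in the CRC cultures of cancers 1 and 2, against 0.215 and 0.982 FPKM in their EpiC cultures. In both genes each CRC library was above its EpiC partner, and cancer 2 had the higher CRC level. The CRC library of cancer 2 stood apart: its FPKM summed to 1615927, against 654301 to 710511 in the other cancer cultures. It also had the fewest genes at 1 FPKM or more, 10658. Levels of the 2 cancers are thus not on a like scale, and the part of this library in the counts of direction was not tested. The sample titles of the 2 cancers share a number and differ in a letter, so both may be of 1 mouse. Whether they are independent cases is unknown. All 6 called stratified keratins in that table, 11 of 13 cornified genes and 9 of 11 antimicrobial and S100 genes had the same direction in both cancers. Of 8 called desmosome genes 2 had the same and 1 the opposite direction in both cancers, and of 5 hemidesmosome genes 1 had the same and 3 the opposite. The matrix and cell cycle genes did not. Bgn had 2.12 and 10.6 FPKM in the CRC cultures of cancers 1 and 2, against 0.0450 and 0.351 FPKM in their EpiC cultures, so it was low throughout and higher in CRC. Ccnb1, the mitotic cyclin, had 92.3 and 47.4 FPKM in the CRC cultures of cancers 1 and 2, against 105 and 97.2 FPKM in their EpiC cultures, and all 6 called mitosis genes had the opposite direction in both cancers, as did 6 of 8 fibroblast markers. Cdkn2a had 169.5 and 387 FPKM in the CRC cultures of cancers 1 and 2, against 154 and 185 FPKM in their EpiC cultures, and Ccng1 had 22.4 and 20.9 FPKM in the CRC cultures of cancers 1 and 2, against 25.9 and 11.97 FPKM in their EpiC cultures. Of 18 called p53 targets 4 had the same and 7 the opposite direction in both cancers. Cdkn2a was thus higher in CRC in both cancers, and Ccng1 was higher in CRC in cancer 2 and lower in cancer 1.

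**Figure D5:**
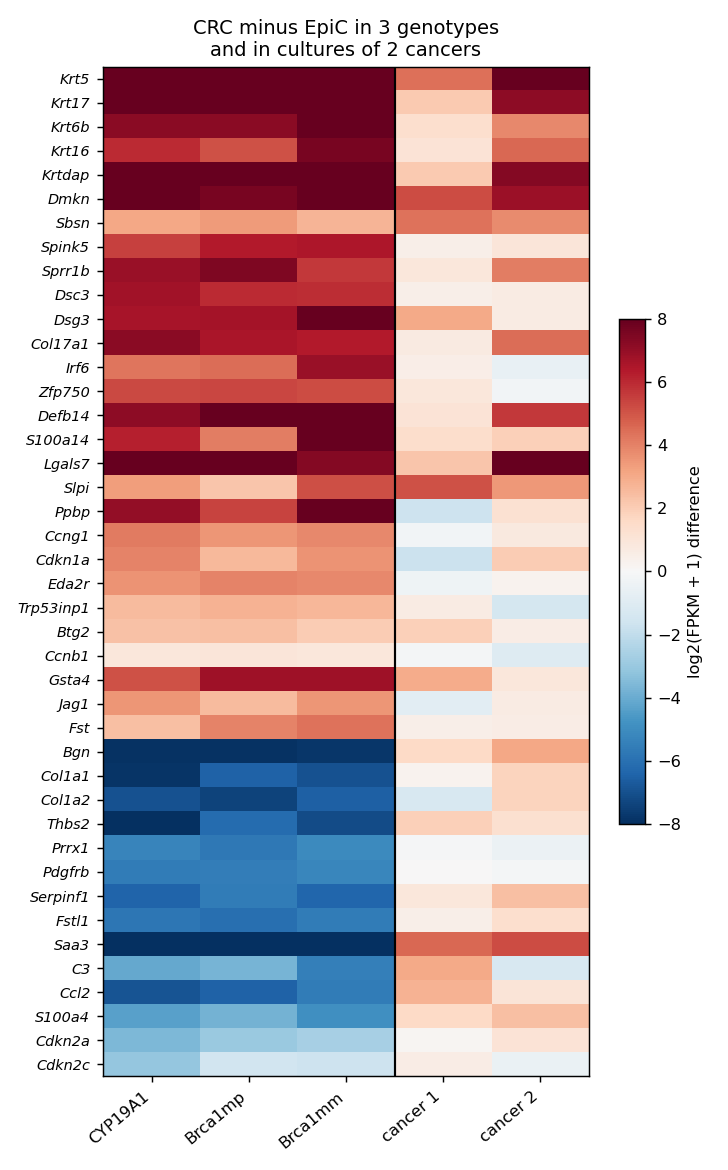
Difference between CRC and EpiC, as log2(FPKM + 1), for genes in rows and pairs of libraries in columns: the 3 genotypes of normal cultures to the left of the black line and the 2 cancers to its right, with red for higher and blue for lower in CRC. The keratin and cornified genes are red in all 5 columns, whereas most p53 targets and matrix genes are strong in the 3 genotypes and weak or opposite in the cancers.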

How the data were processed

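Poly(A) RNA of 22 libraries was sequenced, and the deposited tables give FPKM per gene, 1 table with 16 cultures and allografts (23993 genes) and 1 with 6 libraries of cancers. The authors used FastQC, Trim Galore, TopHat and Cufflinks with the mm9 build, per the submitters' processing notes; the sources used here give no versions, annotation or scaling between libraries. FPKM keep no counts, so the depth is unknown and no counting interval is given.

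Samples were grouped by their labels. FPKM were turned to log2(FPKM + 1), genes averaging 1 FPKM or more over the libraries of a fit were kept, and limma 3.58.1 (R 4.3.3) was fitted with genotype as a term and a mean-dependent prior variance, with Benjamini-Hochberg adjustment over all genes tested and a threshold of 0.05. The 4 tests were CRC against EpiC in 3 genotypes, in CYP19A1 and Brca1mp alone, the Brca1mm difference minus the mean of the other genotypes, and the culture difference minus the allograft difference. The script was tested on simulated data. With 3 libraries against 3, an exact two-sided permutation test of a single gene that ignores genotype could not go below p = 0.10. A test that exchanges libraries only within a genotype could not reach as low, so neither was run. The alternatives were no variance trend, no replicate block, each library left out, a smaller pseudocount (0.1), either no filter or one at 5 FPKM, and libraries rescaled by median ratios; the rescaling used genes above 1 FPKM in every library. Sequences came from RefSeq. Figures were drawn with Python 3.11.15.

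The members and gene lists were chosen with earlier results of these data known. Genes were named by rule: the 12 largest called changes in each direction with at least 5 FPKM in the higher medium, up to 6 called members of each list by p and up to 3 uncalled members by level, all members of lists with at most 8 tested genes, 16 marker genes, and the strongest genes of the 2-genotype fit and of the Brca1mm contrast (up to 10 in each direction); the text gives a part of them. Ankrd1, Fas, Fgfr2, Gata3, Itgb4, Lamb3, Mdm2, Serpinb5, Tnc and Vcan fall outside it and were chosen after their values were seen.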

Additional observations from a re-analysis of the deposited data

Results flagged for a closer look

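The results here are those in which the CRC minus EpiC difference itself differed between conditions by a test of that difference in limma with Benjamini-Hochberg adjustment. Between the Brca1mm cultures and the other genotypes it differed in 22 genes. Among those named, the contrast (Brca1mm minus the mean of CYP19A1 and Brca1mp, log2 scale) was 9.39 for Wfdc2, 8.11 for Dynap, 7.38 for Ltf and 6.18 for Rab25, epithelial or secretory genes at or below 1 FPKM in the Brca1mm EpiC library, and -7.58 for Rpl39l and -6.64 for Wfdc17, which were high in that library alone, at 235 and 220.2 FPKM. The direction of each rests on 1 library per medium. Between cultures and allografts the difference between media differed in 1506 genes. The contrast (culture minus allograft, log2 scale) was 9.69 for Krtdap, 4.28 for Ccng1, -4.13 for Cdkn2a and -9.38 for Bgn, and each kept its call whichever of the 16 libraries was left out. These genes were chosen for their difference in the same cultures or as markers, so large contrasts were favoured in advance.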

How the results depend on the processing

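Over 3 genotypes, the count of 2741 genes became 2651 with a pseudocount of 0.1, 2171 with a filter at 5 FPKM, 2676 after median-ratio rescaling (1207 higher and 1469 lower in CRC), 2655 with no variance trend and 1658 with no filter, and 159 to 2091 with 1 library left out. Over CYP19A1 and Brca1mp alone, the 2093 genes became 72 with no filter, where 17931 genes were tested, and, with 1 library left out and no replicate block, 691, 708, 786 and 837. The 22 genes of the Brca1mm contrast became 131 with a pseudocount of 0.1, 10 after rescaling, 11 with no trend, 0 with no filter (1925 at an unadjusted p under 0.05) and 0 with any 1 CYP19A1 or Brca1mp library left out (1020 to 1621 at an unadjusted p under 0.05); a Brca1mm library cannot be left out there. The 1506 genes of the culture and allograft contrast became 1000 with a filter at 5 FPKM, 797 without the Brca1mm libraries, 968 without the Brca1mp CRC culture, and 760 (without the Brca1mm CRC culture) to 2243 (without an EpiC allograft, replicate 3) with 1 library left out. Causes were not tested. Same-genotype libraries were checked for pairing: their deviations from the group means correlated at 0.0221, 0.0423 and 0.0177, under the 0.1 set for treating libraries as pairs. The main fits kept genotype as a term all the same, so their calls rest on a pairing that this check did not show. Whether libraries of a genotype share animals is not stated in the labels. With no replicate block the counts were 3557, 2240, 21 and 1737 in the order above. Of 73 named genes called over 3 genotypes, 63 kept the call under every setting that used all 6 libraries and 32 under every library left out, and 0 changed direction; of 10 called in CYP19A1 and Brca1mp alone 0 kept it under every such setting. The counts of gene lists moved too: with no filter 5 desmosome, 6 antimicrobial and 1 mitosis gene rose and 7 chemokine genes fell, and with a filter at 5 FPKM 8 mesenchymal factors and 3 Hox genes fell. Of called genes, 29.3% kept their direction in both cancers, and 27.7% with a filter at 5 FPKM. Depth is unknown, so low FPKM carry an unknown counting error, and a value of 0 says only that a gene is listed at 0.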
